A study of Homo sapiens with 6 samples.

Results

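Keratin genes, which encode the intermediate filament proteins of epithelial cells, were examined in cells labelled as T24 bladder cancer cells after transfection with siRNA against FBXL6. Members were the genes whose symbol is KRT followed by digits and, in some, by A, B or C, so that keratin pseudogenes and keratin-associated proteins were left out. This rule took 55 of the 56303 genes in the count table, of which 29 encode type I (acidic) and 26 encode type II (basic) keratins. T24 is an established human cell line derived from bladder carcinoma, and RNA was collected 48 h after transfection. The line is named by the labels and the study, and its identity was not tested in these libraries. The control group, labelled siNC and of WT genotype, held 3 libraries, and the group labelled siFBXL6, whose genotype label is an FBXL6 knockdown of the same line, held 3 as well. All 6 carry 1 batch label, and the labels do not say which siRNA against FBXL6 was used or whether replicates came from separate cultures. The numbers in the labels (siFBXL6-1, siFBXL6-2 and siFBXL6-3) were taken as replicate numbers, although the study also names individual siRNAs in this way, and whether the 3 libraries share an siRNA is not known. P-values therefore measure only the spread between these libraries. The siNC libraries held 58646515, 60967902 and 56814946 counts, and the siFBXL6 libraries held 60968158, 60898556 and 60754015.

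Keratin filaments are built from heterodimers of a type I and a type II chain, and most epithelia express characteristic pairs. Simple epithelia and urothelium carry KRT8 with KRT18, together with KRT7 and KRT19, while basal cells of stratified epithelia carry KRT5 with KRT14. Differentiating layers switch to other pairs, and wounded or proliferating epithelium expresses KRT6 chains with KRT16 and KRT17. In bladder tumors, keratin expression is widely used to tell luminal from basal subtypes.

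FBXL6, the siRNA target and the substrate-binding subunit of an SCF ubiquitin ligase, was counted 362, 414 and 398 times in the siNC libraries and 398, 344 and 350 times in the siFBXL6 libraries. The counts of the groups overlapped, and siFBXL6 replicate 1 equalled siNC replicate 3. In CPM, the counts scaled to library size with TMM factors, the level was 6.61 ± 0.380 in siNC and 6.03 ± 0.483 in siFBXL6 (SD, n = 3 libraries each). The log2 fold change was -0.13 (SE 0.0875, 95% interval -0.31 to 0.05), with an adjusted p of 0.247 in edgeR's quasi-likelihood test with Benjamini-Hochberg adjustment. FBXL6 mRNA therefore did not separate the groups in these libraries. The study reports reduced FBXL6 mRNA by qRT-PCR and reduced protein by Western blot in T24 cells given its siRNAs. Whether this held in the cultures sequenced here is not known from these counts. Every direction below is that of the libraries labelled siFBXL6 against the libraries labelled siNC.

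Across the keratin family, 22 of the 55 genes had enough counts for the test, 10 of type I and 12 of type II. In the libraries labelled siFBXL6, 7 of the 22 were higher (KRT23, KRT6A, KRT6B, KRT17, KRT15, KRT80 and KRT78) and 5 were lower (KRT5, KRT13, KRT8, KRT19 and KRT7) at an adjusted p under 0.05. Among all 21298 genes tested, 40.2% were called changed, 20.5% higher and 19.8% lower, so changed calls were common in this comparison. KRT6B and KRT78 were changed at least 2-fold, as were 2.92% of all genes tested, but KRT78 fell short of this with upper-quartile or library-size scaling (log2 fold change 0.99). It was not tested with a filter of 10 counts in every library. Its call was lost in DESeq2 (adjusted p = 0.0669) and without any 1 of the 6 libraries (adjusted p from 0.0515 to 0.119). The log2 fold change of KRT78 stayed near 1 there, at 1.02 in DESeq2 and 0.87 to 1.12 without single libraries. KRT6B alone was then both called and at least 2-fold. The CPM ranges of siNC and siFBXL6 lay apart for 13 of the 22 keratins, as they did for 48.2% of all genes tested. The median log2 fold change was 0.06 over the keratins tested and -0.01 over all genes tested. In bulk RNA, fewer cells of a type and less RNA per cell cannot be told apart.

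**Figure D1:**
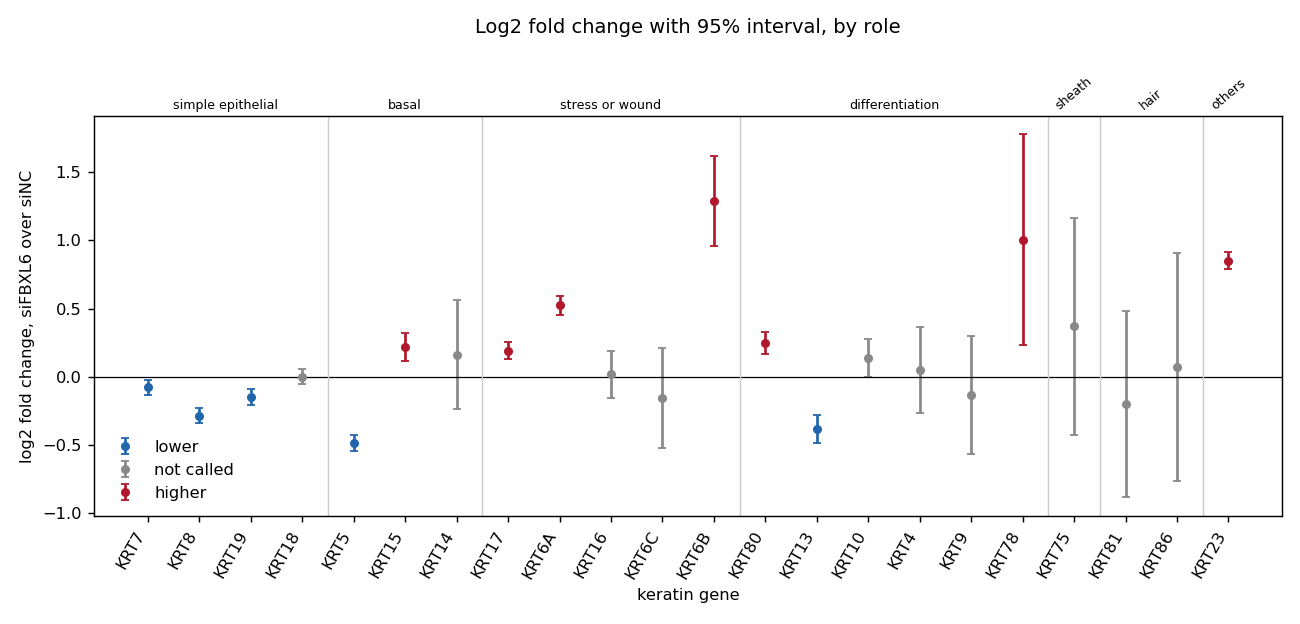
Log2 fold change of siFBXL6 over siNC for the 22 keratins tested (vertical axis), ordered by role along the horizontal axis, with 95% intervals as bars and color for the call at an adjusted p under 0.05. The simple epithelial keratins lie at or below 0, KRT6B, KRT78 and KRT23 lie highest, and the intervals are widest for KRT78, KRT75, KRT81 and KRT86, which had the fewest counts.

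By type, 3 of the 10 type I keratins tested were higher, 2 were lower and 5 were not called. Among all genes tested, 20.5% were higher and 19.8% lower. The median log2 fold change of type I was 0.08, which ran from 0.03 without siNC replicate 1 to 0.12 without siFBXL6 replicate 2. Of the 12 type II keratins tested, 4 were higher, 3 were lower and 5 were not called, with a median of 0.06, and this median ran from -0.09 to 0.15 over the alternative settings. Type I genes lie on chromosome 17, apart from KRT18, which lies beside KRT8 in the type II cluster of chromosome 12. In the coordinates of the count table (GRCh38), the keratins of chromosome 12 span chr12:52168996-52952901 and those of chromosome 17 span chr17:40654665-41624842.

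KRT7, KRT8 and KRT19, all of the simple epithelial group, had the highest counts of the family, and these 3 of the 4 tested in that group were lower in siFBXL6, against 19.8% of all genes tested. KRT7, a type II keratin of ductal and urinary tract epithelium, was at 1053, 1014 and 1048 CPM in siNC and at 979, 994 and 977 CPM in siFBXL6. The groups did not overlap, but the log2 fold change was small, -0.08 (SE 0.027, adjusted p = 0.0187 in edgeR's quasi-likelihood test). Leaving out siFBXL6 replicate 1 raised the adjusted p to 0.074, and leaving out siFBXL6 replicate 3 raised it to 0.107, so either removal ended the call. The log2 fold change stayed about as large, at -0.08 and -0.07.

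KRT8, the type II partner of KRT18, was at 868, 834 and 850.3 CPM in siNC and at 705, 686 and 702 CPM in siFBXL6. Every siFBXL6 library lay below every siNC library, with a log2 fold change of -0.29 (SE 0.0276, adjusted p = 2.03e-10). KRT18, the type I partner, was at 380.1, 372 and 380.1 CPM in siNC and at 382, 372 and 379 CPM in siFBXL6. The groups overlapped, with a log2 fold change of 0.00 and a 95% interval of -0.06 to 0.06 (adjusted p = 0.99). KRT19, the shortest type I keratin, which lacks most of the tail domain, was at 714, 696 and 724 CPM in siNC and at 648, 635 and 638 CPM in siFBXL6. It was lower without overlap, by a log2 fold change of -0.15 (SE 0.0276, adjusted p = 3.41e-05). KRT20, the keratin of umbrella cells at the urothelial surface, had 2 counts over the 6 libraries and was not tested.

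Among the basal keratins, KRT5 was lower, KRT15 was higher and KRT14 was not called. KRT5, the type II keratin of basal layers, was at 443, 429.9 and 439.5 CPM in siNC and at 311, 312 and 315 CPM in siFBXL6. No library of either group came near the range of the other, and the fold of 0.715 (log2 fold change -0.48, SE 0.0283, adjusted p = 7.84e-16) was the lowest of the keratins tested. KRT14, the usual type I partner of KRT5, was low in these libraries at 1.28, 1.08 and 0.993 CPM in siNC and 1.26, 1.09 and 1.41 CPM in siFBXL6. The groups overlapped (log2 fold change 0.16, adjusted p = 0.557), and the log2 fold change ran from 0.07 without siFBXL6 replicate 3 to 0.27 without siNC replicate 1. KRT15, another type I keratin of basal cells, was at 25.4, 22.3 and 24.5 CPM in siNC and at 28.8, 26.4 and 28.7 CPM in siFBXL6. All siFBXL6 values lay above the siNC values, with a log2 fold change of 0.22 (SE 0.0511, adjusted p = 0.000793).

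The stress or wound keratins included 3 higher members of 5 tested, against 20.5% of all genes tested, and no lower one, and the paralogs of KRT6 differed in their values. KRT6A, the main KRT6 chain by count, was at 75.2, 73.9 and 73.1 CPM in siNC and at 112, 101 and 107 CPM in siFBXL6. Each siFBXL6 library exceeded each siNC library, with a fold of 1.44 (log2 fold change 0.52, SE 0.0341, adjusted p = 1.25e-14). KRT6B was counted 74, 62 and 54 times in siNC and 155, 155 and 164 times in siFBXL6. Its level went from 1.07 to 2.62 CPM without overlap, a fold of 2.44 (log2 fold change 1.29, 95% interval 0.96 to 1.62, adjusted p = 4.91e-08). KRT6C was counted 78, 89 and 107 times in siNC and 72, 90 and 89 times in siFBXL6. The groups overlapped (log2 fold change -0.16, 95% interval -0.52 to 0.21, adjusted p = 0.537), and the log2 fold change was 0.00 without siNC replicate 3 and -0.25 without siNC replicate 1.

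KRT17, a type I keratin induced in wounded and tumor epithelium, was at 375, 352 and 368 CPM in siNC and at 425, 409 and 416 CPM in siFBXL6. It was higher without overlap, by a log2 fold change of 0.19 (SE 0.0299, adjusted p = 3.07e-06). KRT16, a type I partner of the KRT6 chains, was at 7.01, 6.86 and 6.34 CPM in siNC and at 7.39, 6.36 and 6.72 CPM in siFBXL6. The groups overlapped, and the log2 fold change of 0.02 had a 95% interval of -0.15 to 0.19 (adjusted p = 0.896). It was -0.02 without siNC replicate 3 and -0.04 without siFBXL6 replicate 1.

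The KRT6 transcripts are alike enough that reads can be shared between them. The canonical GENCODE transcript of KRT6A matched that of KRT6C at 95.2% and that of KRT6B at 88.5% of aligned bases. Of all stretches of 100 bases in the canonical transcript, 18.2% for KRT6A, 24.4% for KRT6B and 31.5% for KRT6C also occurred in transcripts of other genes, mostly of each other. KRT6A had 32478 counts over the 6 libraries, against 664 for KRT6B and 525 for KRT6C. The values of KRT6B and KRT6C are uncertain in this respect, and the part of KRT6A reads in them was not tested.

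KRT23, a type I keratin found in tumors of several epithelia, had the smallest adjusted p of the family. It was at 84.3, 84.7 and 88.1 CPM in siNC and at 157, 153 and 154 CPM in siFBXL6. The groups were far apart compared with their spread, with a fold of 1.81 (log2 fold change 0.85, SE 0.0312, adjusted p = 2.75e-21).

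**Figure D2:**
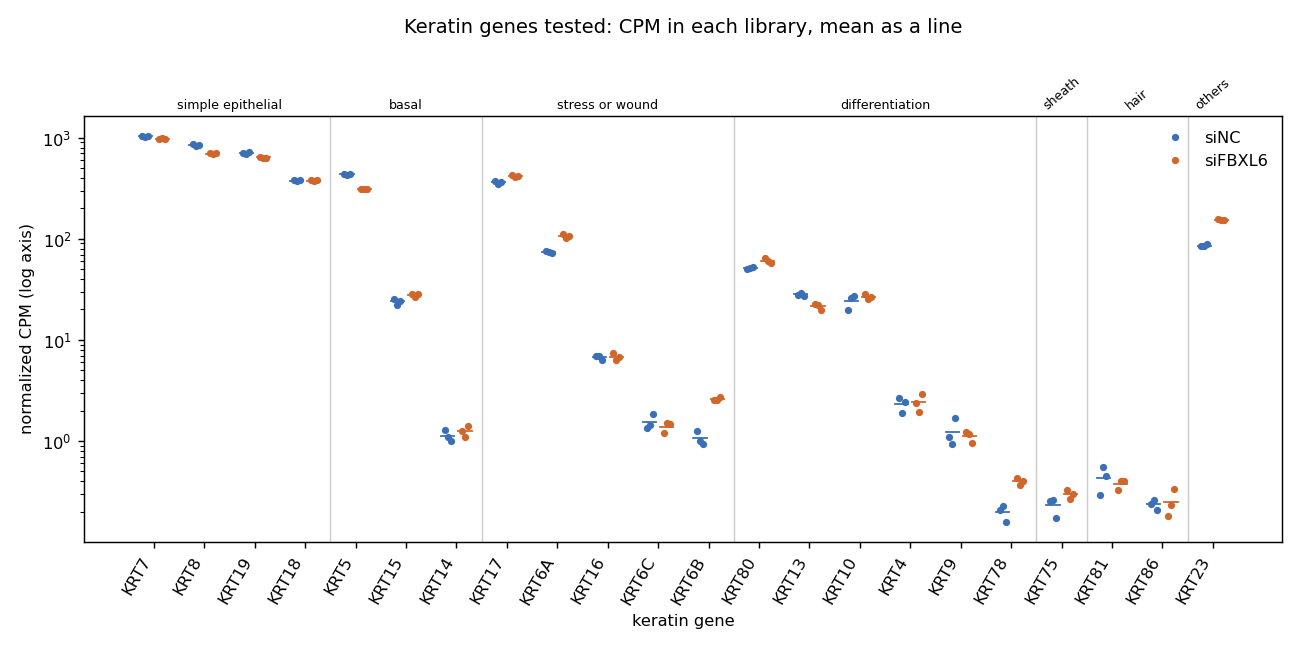
Normalized CPM of the 22 keratins tested in each of the 6 libraries (points, log axis), with the mean of each group as a line, ordered by role and then by level. KRT7 lies near 1000 CPM and KRT78 below 1 CPM, and the points of both groups overlap for KRT18, KRT14, KRT16, KRT6C, KRT4, KRT9, KRT10, KRT81 and KRT86.

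Of the 14 keratins of epidermal and mucosal differentiation, 6 were tested, with 2 higher, 1 lower and 3 not called, where 20.5% of all genes tested were higher and 19.8% lower. The call of KRT78, one of the higher members, was lost in DESeq2 and without any single library (log2 fold change 0.87 to 1.12). KRT13, a type I keratin of mucosal stratified epithelium and urothelium, was at 27.6, 29.4 and 27.5 CPM in siNC and at 22.7, 22.2 and 19.9 CPM in siFBXL6. It was lower without overlap (log2 fold change -0.38, SE 0.0512, adjusted p = 1.85e-07). KRT4, its type II partner, was at 2.67, 1.88 and 2.46 CPM in siNC and at 2.40, 1.95 and 2.89 CPM in siFBXL6. The groups overlapped (log2 fold change 0.05, adjusted p = 0.832), and the log2 fold change was -0.09 without siNC replicate 2 and -0.10 without siFBXL6 replicate 3.

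KRT80, a type II keratin of differentiating epithelia, was at 49.9, 51.1 and 52.9 CPM in siNC and at 64.2, 60.4 and 58.2 CPM in siFBXL6. All siFBXL6 libraries were higher (log2 fold change 0.25, SE 0.0381, adjusted p = 2.24e-06). KRT10, the type I keratin of suprabasal epidermis, was at 19.9, 26.1 and 27.0 CPM in siNC and at 28.2, 25.4 and 26.7 CPM in siFBXL6. The groups overlapped apart from the low value of siNC replicate 1, and KRT10 was not called (log2 fold change 0.14, adjusted p = 0.108). Its log2 fold change was 0.01 without siNC replicate 1 (adjusted p = 0.906) and 0.22 without siNC replicate 3, where it was called (adjusted p = 0.0129).

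KRT78, a type II keratin of stratified epithelia, was counted 12, 14 and 9 times in siNC and 26, 22 and 24 times in siFBXL6. The counts did not overlap, and the log2 fold change of 1.01 had a 95% interval of 0.23 to 1.78 (adjusted p = 0.0325). The call was lost in DESeq2 (adjusted p = 0.0669) and when any of the 6 libraries was left out (adjusted p from 0.0515 to 0.119). In these fits the log2 fold change was 1.02 in DESeq2 and 0.87 to 1.12 without single libraries. KRT9, the type I keratin of palm and sole epidermis, was at 1.09, 0.939 and 1.67 CPM in siNC and at 1.24, 1.16 and 0.962 CPM in siFBXL6. These values overlapped (log2 fold change -0.14, adjusted p = 0.664), and the log2 fold change was 0.14 without siNC replicate 3.

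The hair keratins were close to the limit of detection. Of 9 keratins of the hair follicle sheath, only KRT75 was tested, and of 17 keratins of the hair shaft, only KRT81 and KRT86 were tested. None of these 3 was called, against 40.2% of all genes tested. KRT75, of the companion layer, had 95 counts over the 6 libraries and CPM values that did not overlap (log2 fold change 0.37, 95% interval -0.43 to 1.17, adjusted p = 0.499, with a log2 fold change of 0.21 without siNC replicate 3). KRT81 had 145 counts and KRT86 had 87, both with overlapping groups. Their log2 fold changes were -0.20 (adjusted p = 0.68) and 0.07 (adjusted p = 0.913). Leaving out a library changed the sign of both, to 0.02 for KRT81 without siNC replicate 2, and for KRT86 to -0.01 without siNC replicate 3 and -0.19 without siFBXL6 replicate 3. KRT81 and KRT86 shared 30.3% and 27.6% of their stretches of 100 bases with other genes, mostly with each other.

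The other 33 keratins fell below edgeR's filter on low counts. KRT86 was the member just inside the filter, with 11 to 20 counts per library, and KRT1, the epidermal partner of KRT10, was just outside it with 8 to 17. After KRT1, the highest was KRT74 with 36 counts in total and 0 to 12 per library. KRT82, KRT83, KRT34, KRT33B, KRT71, KRT2, KRT3, KRT222 and KRT76 had 10 to 24 counts in total. KRT33A, KRT32, KRT77, KRT35, KRT79, KRT73, KRT72, KRT40, KRT25, KRT39, KRT12, KRT85, KRT31, KRT20, KRT84 and KRT38 had 1 to 8. KRT24, KRT26, KRT27, KRT28, KRT36 and KRT37 had no count in any library. Among table values from 1 to 20, 71.3% were even, against 50.5% of values of at least 1000, and of the 95 nonzero values of these 33 keratins 68 were even. Whether the mates of a read pair were counted separately is not given in the sources used here. With all counts divided by 2, the same 7 keratins were higher and the same 5 were lower, among 20 tested.

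**Figure D3:**
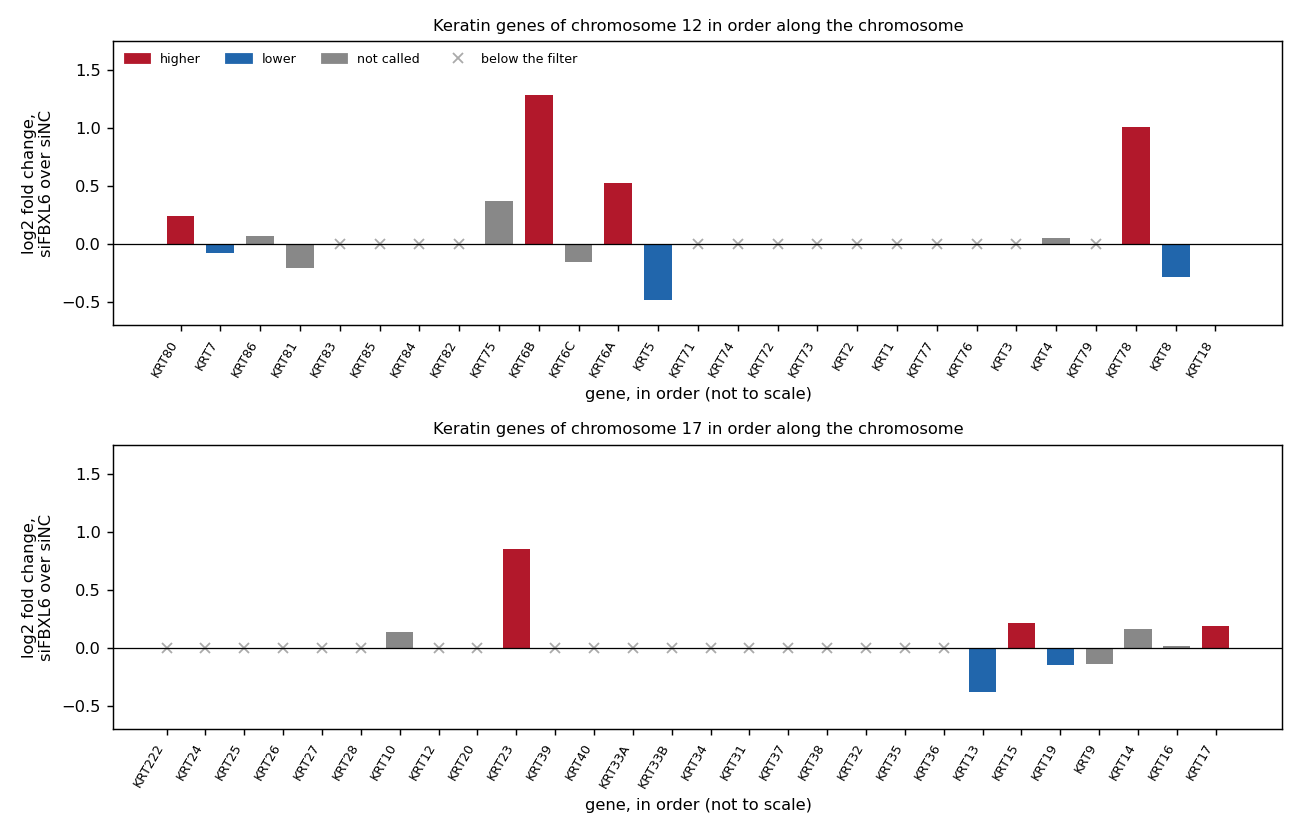
Log2 fold change of siFBXL6 over siNC (bars) for the keratins of chromosome 12 and chromosome 17 in their order along each chromosome (horizontal axis, not to scale), with crosses for genes below the filter. Keratins next to each other in this order and called in opposite directions are KRT80 and KRT7, KRT6A and KRT5, and KRT78 and KRT8 on chromosome 12, and KRT15 with KRT13 and KRT19 on chromosome 17.

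Several keratins next to each other in the order of the family were called in opposite directions, in a comparison where 40.2% of all genes were called. How often other neighboring genes differ was not tested. On chromosome 12, KRT80 was higher and its neighbor KRT7 lower, and KRT78 was higher and its neighbor KRT8 lower. The calls of KRT7 and KRT78 were lost without single libraries, as given above for each gene. KRT6B and KRT6A were higher while KRT5, the next gene after KRT6A at a distance of 21317 bases, was lower. KRT8 and KRT18 overlap at their ends in the table, on opposite strands, and share 525 exon bases, which are 7.63% of the exon bases of KRT8 and 16.3% of those of KRT18. On chromosome 17, KRT15 was higher, while its neighbors KRT13 and KRT19, the latter 1087 bases away, were lower. Exon bases of KRT13 overlapped another gene for 16.3% of their length, as did 9.51% for KRT75, 7.67% for KRT7 and 6.41% for KRT23. The share was 3.34% for KRT86 and 2.61% for KRT10. The strand setting of the counting is not given in the sources used here, although the kit was a stranded one, so reads of genes that overlap on opposite strands may not be separable.

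Promoter sequence from RefSeq (GRCh38.p14) was at hand for 34 of the 55 keratins and for 6 of the 22 tested. The most abundant of these 6 whose RefSeq start is the start of the canonical GENCODE transcript are shown, KRT8 being left out because its RefSeq start lies 21393 bases from the canonical one. They set a keratin that was lower beside one that was not called. KRT5 lies at chr12:52520365-52520644 and KRT10 at chr17:40822585-40822864, both on the minus strand. Each runs 5′ to 3′ from 250 bases before the start to 30 bases after it, and capitals mark matches to the motifs searched.

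KRT5: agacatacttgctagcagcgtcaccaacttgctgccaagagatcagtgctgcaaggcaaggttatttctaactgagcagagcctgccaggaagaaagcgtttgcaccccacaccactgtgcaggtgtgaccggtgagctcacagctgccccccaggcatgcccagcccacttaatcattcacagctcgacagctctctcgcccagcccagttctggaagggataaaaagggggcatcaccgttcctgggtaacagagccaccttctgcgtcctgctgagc
KRT10: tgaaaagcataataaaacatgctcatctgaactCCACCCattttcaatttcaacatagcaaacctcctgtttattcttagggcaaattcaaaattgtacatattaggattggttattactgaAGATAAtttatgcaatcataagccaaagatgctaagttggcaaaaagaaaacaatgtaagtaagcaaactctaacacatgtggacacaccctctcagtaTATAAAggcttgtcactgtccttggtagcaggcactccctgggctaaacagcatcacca

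The 6 motifs were searched on both strands over 300 bases, and the share of all 35116 promoters holding each is a background. They were the TATA box TATAAA (11.5% of promoters), the AP-1 motif TGANTCA (7.71%), the GC box GGGCGG (45.0%), the TEAD motif GGAATG (14.0%), the GATA motif AGATAA (10.3%) and the KLF motif CCACCC (34.3%). KRT10 had the TATA box 29, the GATA motif 128 and the KLF motif 217 bases before the start. KRT5 had no match in this window, which says only that these letters are not there.

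Levels were compared between genes per kilobase (kb) of summed exon length. In siNC, KRT19 was highest at 304 ± 5.96 CPM per kb, followed by KRT7 at 254 ± 5.16, KRT17 at 144 ± 4.73, KRT8 at 124 ± 2.49, KRT18 at 117 ± 1.40 and KRT5 at 102 ± 1.58 (SD, n = 3). Next came KRT23 at 29.5 and KRT6A at 25.3 CPM per kb. Neighbors in this order did not overlap among these 8, but KRT80, KRT10 and KRT13 overlapped as neighbors at 11.8, 11.3 and 9.66 CPM per kb. KRT4, KRT9, KRT6C, KRT14 and KRT6B likewise overlapped as neighbors, at 0.705 to 0.469 CPM per kb. In siFBXL6, KRT8 at 101 CPM per kb stood below KRT18 at 117, and KRT6B at 1.15 stood above KRT4 at 0.728.

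The order depends on the length used. The summed exon length of KRT8 is 6881 bases and its canonical transcript is 1784 bases, and KRT15 has 7121 and 1712. Per kb of the canonical transcript, a scale chosen after seeing the data, KRT7 was highest in siNC at 639 CPM per kb, followed by KRT19 at 512, KRT8 at 477, KRT18 at 267, KRT17 at 241 and KRT5 at 196. The same 6 genes led on both scales, and KRT8 stood above KRT18 on this scale in either group.

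**Figure D4:**
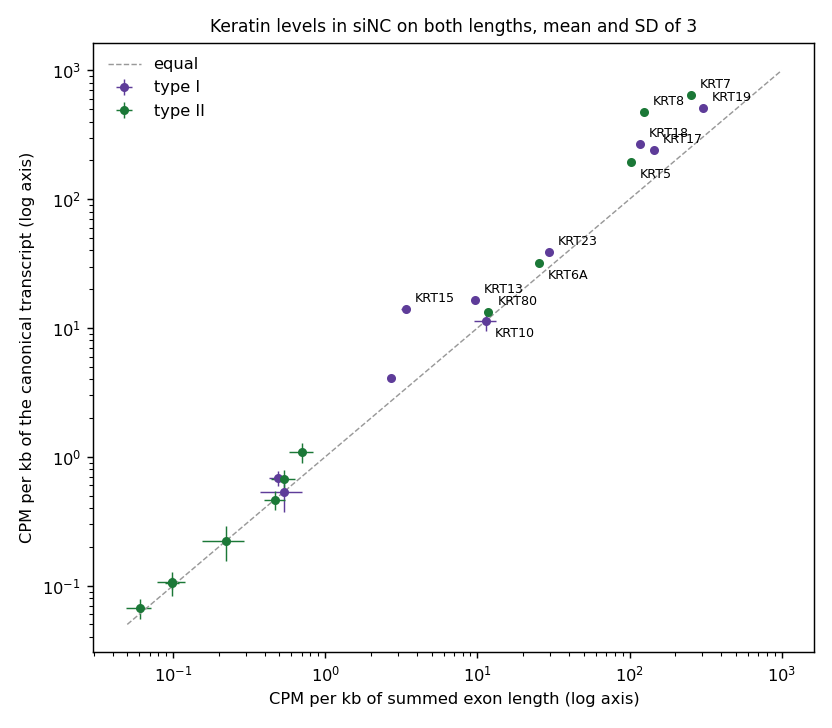
Mean level in siNC of the 22 keratins tested per kb of summed exon length (horizontal, log axis) and per kb of the canonical transcript (vertical, log axis), with SD over 3 libraries as bars and the line of equal values. KRT8 and KRT15 lie farthest above the line, and the 6 leading genes are the same on both axes.

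The levels of each type were summed, a measure led by the few abundant genes. Summed over the 26 type II genes, the level was 526, 508 and 522 CPM per kb of exon length in siNC and 470.2, 466 and 468 in siFBXL6. The siFBXL6 sums were all below the siNC sums. The fall lay in 3 abundant genes, KRT5 (102 to 72.8 CPM per kb), KRT8 (124 to 101) and KRT7 (254 to 240.2), while 4 type II keratins were called higher and the median log2 fold change of those tested was 0.06. The 29 type I genes summed to 627, 611 and 633 CPM per kb in siNC and to 647, 628 and 635 in siFBXL6, which overlapped. On CPM without length they were 1635, 1592 and 1649 in siNC and 1702, 1652 and 1672 in siFBXL6, which did not overlap but nearly touched (1649 against 1652). With library size alone, chosen after seeing the data, they overlapped at 1632, 1614 and 1667 against 1689, 1639 and 1659. The ratio of type I to type II was 1.19, 1.20 and 1.21 in siNC and 1.38, 1.35 and 1.36 in siFBXL6, without overlap. The ratio does not depend on the library normalization, and it was 0.813 in siNC and 0.932 in siFBXL6 per kb of the canonical transcript, so that the direction held while the type with the larger sum did not. As sums over members these ratios were given no test.

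**Figure D5:**
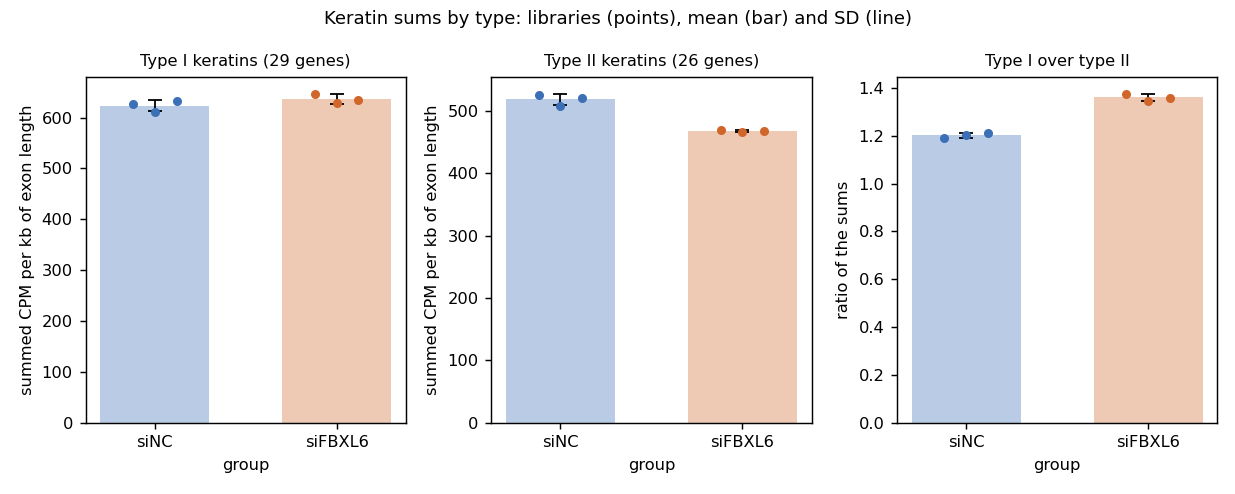
Summed CPM per kb of exon length of type I and type II keratins, and their ratio, in each library (points), with the mean (bars, from 0) and SD (lines, n = 3). The type II sums are lower and the ratios higher in all 3 siFBXL6 libraries, while the type I sums overlap on this scale.

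Chains known to pair with each other were also set side by side. KRT8 over KRT18, per kb of exon length, was 1.07, 1.05 and 1.05 in siNC and 0.863, 0.863 and 0.867 in siFBXL6. KRT6A over KRT16 was 9.07, 9.10 and 9.75 in siNC and 12.8, 13.4 and 13.5 in siFBXL6. For KRT5 over KRT14 the mean was 209.8 ± 25.9 in siNC and 134 ± 16.5 in siFBXL6, so KRT5 was far above its partner in every library. KRT7 over KRT19 moved the other way from KRT8 over KRT18, from 0.833 ± 0.00821 to 0.876 ± 0.0157. KRT5 over KRT15 went from 30.2 ± 1.58 to 18.6 ± 0.846, and KRT6A over KRT17 from 0.176 ± 0.00532 to 0.222 ± 0.0069. Of these 7 ratios, only KRT4 over KRT13 overlapped between the groups, at 0.0733 ± 0.0151 and 0.0992 ± 0.0255. Per kb of the canonical transcript, KRT8 over KRT18 was 1.79 in siNC and 1.46 in siFBXL6, KRT7 over KRT19 was 1.25 and 1.31, and KRT5 over KRT15 was 13.9 and 8.57. The direction was as on exon length, but which chain stood above the other depended on the length for KRT8 with KRT18 in siFBXL6 and for KRT7 with KRT19. The difference within each pair was not tested.

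By role, the simple epithelial keratins made up 70.0% of the keratin level per kb of summed exon length in siNC and 66.4% in siFBXL6. Shares by role were not taken on the canonical length, although levels between genes depend on the length used. Basal keratins went from 9.26% to 7.0%, of which KRT5 was nearly all (102 of 106 CPM per kb in siNC), while KRT15 was higher. Stress or wound keratins went from 15.1% to 18.6%, and KRT23 with KRT222 went from 2.59% to 4.82%. The shares of these 4 groups did not overlap between the libraries. Differentiation keratins overlapped at 3.00% and 3.20%. All keratins together took 0.411% of the counts in siNC and 0.381% in siFBXL6, also without overlap, and KRT7, KRT8, KRT19, KRT5, KRT18 and KRT17 held 92.6% and 89.2% of these keratin counts.

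Counts given to keratin pseudogenes were a small share of those of their parents, which does not measure how many reads match both. Of stretches of 50 bases in the canonical transcript, 39.2% for KRT8 and 35.3% for KRT18 also occurred in transcripts of other genes. The 50 KRT8 pseudogenes in the table summed to 2.49%, 2.65% and 2.42% of the KRT8 count in siNC and to 3.55%, 3.42% and 3.39% in siFBXL6. Their counts were 1265, 1367 and 1180 in siNC and 1512, 1418 and 1436 in siFBXL6, so they were higher where KRT8 was lower. KRT8P12 held 4807 of them over the 6 libraries. These sums are small beside the 41448 to 51520 counts of KRT8 itself. The 67 KRT18 pseudogenes summed to 0.461% to 0.743% of the KRT18 count, and for KRT17 and KRT19 the share was at most 0.215% and 0.0522%. KRT16 pseudogenes, with 2 to 16 counts per library, reached 3.95% of the KRT16 count.

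Genes that accompany keratins were listed as other intermediate filaments, junction linkers, proteins that bind or turn over keratins, and epithelial transcription factors. Of these 45 genes, 43 were tested, with 12 higher, 11 lower and a median log2 fold change of 0.03, and none changed 2-fold. Over all genes tested the shares were 20.5% higher, 19.8% lower and 2.92% at least 2-fold. Other intermediate filaments had 4 higher and 2 lower of 13 tested. VIM, the mesenchymal filament protein vimentin, was at 16.1, 15.6 and 15.1 CPM in siNC and at 26.0, 25.2 and 24.99 CPM in siFBXL6. It was higher without overlap (log2 fold change 0.70, SE 0.0514, adjusted p = 2.57e-13). The study reports less vimentin protein by Western blot after FBXL6 knockdown, the opposite direction on a different measure. For E-cadherin it reports more protein, and CDH1 mRNA was higher as well, as given below. NES, the filament protein nestin, went from 57.7 to 83.6 CPM (log2 fold change 0.53, adjusted p = 1.37e-14), and LMNB1, a nuclear lamin, went from 182 to 130.3 CPM (log2 fold change -0.48, adjusted p = 1.72e-14).

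Junction linkers, which tie keratin filaments to desmosomes and hemidesmosomes, had 1 higher and 5 lower of 11 tested, where 20.5% of all genes tested were higher and 19.8% lower. The higher one, DST, which encodes dystonin and was picked after its value was seen, had the largest change of these 11, from 231 to 324 CPM (log2 fold change 0.49, adjusted p = 9.85e-14). PKP2, a desmosomal plakophilin, went from 18.8 to 15.5 CPM (log2 fold change -0.28, adjusted p = 8.12e-05). Proteins that bind or turn over keratins had 4 higher and 1 lower of 7. SFN, the epithelial 14-3-3 protein that binds phosphorylated keratins, went from 136 to 218 CPM (log2 fold change 0.68, adjusted p = 2.64e-18). Epithelial transcription factors had 3 higher and 3 lower of 12. GATA3, a luminal urothelial factor, went from 13.6 to 9.37 CPM (log2 fold change -0.53, adjusted p = 7.57e-08). These 6 genes, VIM included, were taken for their large fold changes, and over the whole list the groups lay apart for 23 of the 43 tested, against 48.2% of all genes tested.

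Markers of the cell types that the sample could hold were read beside the keratins. Of 8 urothelial markers, UPK1A had no count, UPK1B and UPK3A were under 0.1 CPM, and PPARG was the most abundant at 66.5 CPM in siNC and 63.5 in siFBXL6. The other uroplakins, membrane proteins of urothelial differentiation, were low as well, with UPK2 at 1.41 and 1.19 CPM and UPK3B at 0.947 and 0.414 CPM. The urothelial list summed to 95.2, 93.2 and 98.5 CPM in siNC and to 84.1, 86.8 and 85.7 in siFBXL6, and 3 of its 5 tested genes were lower (GATA3, FOXA1 and UPK3B), against 19.8% of all genes tested. GATA3, FOXA1 and PPARG are also among the transcription factors above. The 6 epithelial markers, 4 of them keratins described above, summed to 3298 to 3414 CPM in siNC and 3070.0 to 3090.0 in siFBXL6. KRT7, KRT8 and KRT19 make up most of this sum. Of the other genes, EPCAM, an epithelial adhesion molecule, was lower (log2 fold change -0.15, adjusted p = 0.000285) and CDH1, which encodes E-cadherin, was higher (log2 fold change 0.16, adjusted p = 5.99e-05).

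Markers of differentiated epidermis summed to 36.3, 40.8 and 41.6 CPM in siNC and to 69.1, 63.3 and 66.9 in siFBXL6. KRT10 had the highest mean of them in siNC and IVL in siFBXL6. IVL, the cornified envelope protein involucrin, was at 13.9, 12.4 and 12.3 CPM in siNC and 39.8, 36.4 and 38.5 CPM in siFBXL6. IVL was higher without overlap (log2 fold change 1.57, SE 0.0529, adjusted p = 2.38e-22). FLG, the epidermal filaggrin, was lower, from 2.15 to 1.30 CPM (log2 fold change -0.72, adjusted p = 0.000984), LOR was under 0.1 CPM, KRT1 was below the filter, and KRT10 was not called. The relation of these markers to KRT6A, KRT6B, KRT23 and KRT80 was not tested.

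Markers of other tissues were read as well. The 7 fibroblast markers summed to 36.4 to 43.0 CPM, mostly COL1A1 at 34.95 in siNC and 31.5 in siFBXL6. Of the 7, 1 was lower, against 19.8% of all genes tested. The fibroblast sums are about as high as those of the epidermal list in siNC. The 4 endothelial markers summed to 2.53 to 4.07 CPM, with KDR the most abundant in siNC at 1.04 CPM and PECAM1 in siFBXL6 at 1.39 CPM. PECAM1 was higher than its siNC level of 0.573 CPM (log2 fold change 1.28, adjusted p = 4.4e-05). The 3 leukocyte markers read here summed to 0.752 to 1.52 CPM, with CD14 the most abundant and CD3E under 0.1 CPM. Neither of the 2 tested was called, against 40.2% of all genes tested. The part of these other tissues in the keratin values was not tested.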

How the data were processed

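Gene counts of 6 libraries labelled T24, 3 transfected with siNC and 3 with siFBXL6, were used. The authors deposited raw counts per gene without normalization, together with the summed exon length of each gene in bases (unit: other, a gene length). The study's methods name Trimmomatic, HISAT2 and featureCounts, whereas the submitters' processing notes name fastp 0.23.0, STAR and featureCounts (Subread 1.5.1), with GRCh38. Which aligner made the table was not resolved. The libraries were made with a stranded mRNA kit, but the annotation release and the strand and pair settings of the counting are not given in the sources used here.

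Genes were filtered with filterByExpr, normalized with TMM and tested in R 4.3.3 by the quasi-likelihood method of edgeR 4.0.16 (limma 3.58.1) over the 21298 genes kept, with condition as the only term and Benjamini-Hochberg adjustment over all genes tested. A gene was called at an adjusted p under 0.05. The common biological coefficient of variation was 3.57%. Replicates of a group gave a chi-square per degree of freedom of 2.85 to 6.24 against counting noise. Library totals ran from 56814946 to 60968158 counts.

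Named genes were FBXL6, every keratin that passed the filter, the called partner genes with the 3 highest and the 3 lowest log2 fold changes, and VIM. Values are given in every library for keratins with a mean of at least 1 CPM in either group, the other keratins being given by counts. DST, the marker genes given with values, the pairs of keratins and the sums by role were chosen after their values were seen. The members and lists were chosen with earlier results of these data known. A listed leukocyte marker is not reported here.

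Alternatives were DESeq2 1.42.0, other normalizations and filters, the replicate block, each library left out, a 2-fold threshold and levels without length. Canonical lengths (GENCODE release 44), counts divided by 2 and sums by type with library size alone were added after seeing the data. A grainyhead-like motif was also searched, but with letters that do not match its known core, and is left out. The edgeR steps were tested on simulated data in which few genes changed, all of them 2-fold and with high counts. Smaller changes, changes in many genes and genes with few counts were not covered by that test.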

Additional observations from a re-analysis of the deposited data

How the results depend on the processing

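Over the 22 keratins tested and up to 14 alternatives for each, 277 of 305 values kept their direction and their side of the threshold, 9 kept the direction but lost the call, 2 gained a call and 17 changed sign. Calls changed for KRT7, KRT78 and KRT10. The changes of sign were in 6 keratins, none of them called in any of these fits. KRT18 and KRT16 went to -0.02 and 0 with upper-quartile or library-size scaling, and KRT18 to 0 without a filter and with counts divided by 2. When single libraries were left out, log2 fold changes ran from -0.01 to 0.01 for KRT18, -0.04 to 0.07 for KRT16, -0.10 to 0.18 for KRT4, -0.30 to 0.14 for KRT9, -0.42 to 0.02 for KRT81 and -0.19 to 0.25 for KRT86. KRT10 was called without a filter on low counts (log2 fold change 0.14, adjusted p = 0.0349) and without siNC replicate 3, with adjusted p from 0.0129 to 0.906 over all alternatives. KRT78 was not tested under a filter of 10 counts in every library. Called and at least 2-fold were 2 keratins higher and 0 lower, and of all genes 378 higher and 244 lower. KRT6B alone met both conditions with upper-quartile or library-size scaling, in DESeq2, with 10 counts in every library or without any 1 library. With these scalings KRT78 kept its call at a log2 fold change of 0.99. In DESeq2 (1.02) it stayed at least 2-fold and lost only its call. The same held without siNC replicate 1 or 2 and without siFBXL6 replicate 2 or 3 (1.01 to 1.12). The ratio of type I to type II was 0.661 in siNC and 0.772 in siFBXL6 on CPM without length, and 0.813 and 0.932 per kb of the canonical transcript, chosen after seeing the data. The cause of these changes was not tested.

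With the replicate block, the same 7 keratins were higher and the same 5 lower. Deviations of libraries with the same number correlated at -0.011, 0 and 0.013, so they share only a number.

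Depth limits the 33 keratins below the filter and KRT75, KRT78, KRT81 and KRT86, with at most 34 counts in any library. Reads shared between KRT6A, KRT6B and KRT6C, and between KRT81 and KRT86, limit their values. KRT8, KRT14 and KRT16 shared 7.12%, 6.05% and 7.12% of their stretches of 100 bases with other genes. For stretches of 50 bases the shares were 39.2% (KRT8), 35.3% (KRT18), 24.2% (KRT14), 21.8% (KRT16) and 17.4% (KRT17). The part of shared reads in these keratins and in their ratios was not tested. Levels between genes depend on the length used. The FBXL6 count did not separate the groups, and the log2 fold change of FBXL6 ran from -0.20 to -0.09 over its alternatives (adjusted p from 0.112 to 0.521).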
